A study of Mus musculus with 4 samples.

Results

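Receptor tyrosine phosphatases are transmembrane enzymes that take phosphate off tyrosine residues and so counter tyrosine kinases, and their outer parts resemble cell adhesion molecules. Type R2B receptors carry a MAM domain and bind their own kind on the neighbouring cell, where they meet cadherins and catenins. Type R2A receptors, the LAR family, bind proteoglycans and synaptic adhesion proteins. Among the remaining types, Ptprb of type R3 restrains the angiopoietin receptor Tek in endothelium, and Ptprz1 and Ptprg of type R5 carry a carbonic-anhydrase-like domain that binds contactins. A peripheral nerve holds Schwann cells, vessels, perineurium, fibroblasts and axons, each of which expresses its own set of these receptors.

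The 10 genes described here are Ptprt, Ptprk, Ptprm and Ptpru (R2B), Ptprs, Ptprf and Ptprd (R2A), Ptprb (R3), and Ptprz1 and Ptprg (R5), out of 24062 gene symbols in the deposited count table. They were selected by symbol, and the set was selected on measured values in so far as Ptprt had been seen to be lower in both pairs of libraries that differ in Nf1. The values of those pairs are therefore a description and are not tested. RNA came from sciatic nerve of C57BL/6 mice aged 4 months, with 1 RNA sequencing library for each of 4 genotypes. PKO-NF1 nerves (P2RY14-/- Nf1fl/f Dhh Cre) lacked the UDP-sugar receptor P2ry14 and carried floxed Nf1 with Dhh-Cre, and NF1 nerves (Nf1fl/fl; Dhh Cre) carried floxed Nf1 with Dhh-Cre alone. PKO nerves (P2RY14-/-) lacked P2ry14 only, and WT nerves are labelled C57BL/6, with neither a floxed allele nor Cre given. Nf1 encodes neurofibromin, a brake on RAS. Dhh-Cre acts in the Schwann cell lineage and can also mark endoneurial fibroblasts of neural crest origin, and no file measures in which cells Nf1 was recombined. The labels do not say how many animals a library holds, and they call the NF1 library a repeat.

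Total counts ranged from 14111201 in WT to 20362685 in PKO, and a level of 3 counts equalled 0.152 to 0.183 CPM, the unit used here, in which TMM factors correct each library's size. With 1 library per genotype no difference has a replicate check, and the 95% intervals below cover counting error only. P2ry14 was at 10.6 CPM in PKO-NF1, 65.3 in NF1, 10.9 in PKO and 37.6 in WT, and Nf1 at 20.5, 63.4, 41.0 and 72.8 CPM in the same libraries. The Nf1 level does not follow the Nf1 labels: it was higher in the library labelled NF1 than in PKO, and NF1 was only 1.15-fold below WT. Below, Nf1-floxed means the libraries labelled NF1 and PKO-NF1, by their labels alone. Libraries stood apart in ways other than genotype. A list of 10 skeletal muscle markers took 4.31% of counts in NF1 and 0.0067 to 0.0885% in the others. Xist had 9 counts in PKO-NF1 and 39699 in NF1, while the Y-linked gene Ddx3y had 842 in PKO-NF1 and 0 in NF1, and both genes had counts in PKO and WT. Nerve identity was present in every library: Schwann lineage markers (6 genes, among them Sox10 and S100b) summed to between 1839 and 2928 CPM, and none was at 0.

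RefSeq windows were found for 8 of the 10 genes. The sequences before the start sites of 3 genes are shown because their profiles across the libraries were unlike: Ptprt was low in both Nf1-floxed libraries, its close relative Ptprk varied little, and Ptprz1 was low in the PKO library. Each is the 250 bases upstream of the RefSeq start on build GRCm38.p6, with the GC box GGGCGG or its reverse complement CCGCCC in capitals. Ptprt lies at chr2:162661148-162661397 on the minus strand, Ptprk at chr10:28074570-28074819 on the plus strand and Ptprz1 at chr6:22875252-22875501 on the plus strand.
Ptprt: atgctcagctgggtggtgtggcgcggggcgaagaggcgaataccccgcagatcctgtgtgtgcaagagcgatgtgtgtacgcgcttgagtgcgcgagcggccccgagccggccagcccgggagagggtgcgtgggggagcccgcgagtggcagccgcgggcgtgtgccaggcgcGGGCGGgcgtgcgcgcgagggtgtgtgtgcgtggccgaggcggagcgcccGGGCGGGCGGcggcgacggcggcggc
Ptprk: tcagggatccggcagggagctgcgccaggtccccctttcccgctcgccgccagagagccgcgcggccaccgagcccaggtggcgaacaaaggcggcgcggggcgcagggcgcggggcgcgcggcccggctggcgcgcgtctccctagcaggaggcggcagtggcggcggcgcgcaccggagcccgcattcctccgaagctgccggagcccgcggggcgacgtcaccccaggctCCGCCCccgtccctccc
Ptprz1: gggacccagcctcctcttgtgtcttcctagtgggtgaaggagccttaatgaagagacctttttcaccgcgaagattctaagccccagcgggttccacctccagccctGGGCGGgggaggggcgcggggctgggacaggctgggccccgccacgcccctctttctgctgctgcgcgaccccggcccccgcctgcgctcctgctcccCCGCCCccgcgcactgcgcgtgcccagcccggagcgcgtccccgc

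All 3 windows are rich in CG dinucleotides, with 39 in Ptprt, 38 in Ptprk and 22 in Ptprz1, against a median of 6 over 32851 RefSeq windows of the same length. The GC box occurs 3 times in Ptprt, with 2 of those overlapping, once in Ptprk and 2 times in Ptprz1, and 32.7% of all windows hold at least 1 on either strand. None of the 3 holds TATAAA, which 12.4% of windows hold, or CACGTG, which 6.02% hold, on either strand. Ptprt, low in both Nf1-floxed libraries, and Ptprk, which varied little, are thus alike in CG dinucleotides and differ in the number of GC boxes. A match is a description of the sequence and not of a bound site.

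Ptprt, also called RPTP-rho, is known mainly from brain neurons, and its human form removes phosphate from STAT3 and paxillin. The gene (ENSMUSG00000053141) spans 161521990 to 162661147 on the minus strand of chromosome 2 (GRCm38), and its longest transcript of 12112 bases has 31 exons. Ptprt was at 7.26 CPM in PKO-NF1 and 6.80 CPM in NF1, against 34.9 CPM in PKO and 34.1 CPM in WT. The corresponding raw counts were 119, 134, 621 and 578. The libraries thus fell into a low and a high level that followed the Nf1 labels, though not the measured level of Nf1, and inside each level the ratio of neighbours had an interval that includes 1. NF1 was 5.02-fold lower than WT (interval 4.15 to 6.10), and PKO-NF1 was 4.81-fold lower than PKO (3.95 to 5.90). These 2 pairs share no library, and both pairs had already been used to choose the gene.

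Between libraries that differ in P2ry14, Ptprt was not apart beyond counting error under TMM scaling. PKO was 1.02-fold above WT (interval 0.913 to 1.15), and PKO-NF1 was 1.07-fold above NF1 (0.827 to 1.38). Scaled by total counts alone, the log2 ratio of PKO to WT was -0.43. With length and GC trends removed, a step described below, Ptprt was 1.44-fold higher in PKO than in WT. It was then 2.06-fold higher in PKO-NF1 than in NF1. An opposite-strand gene, Ptprtos, overlaps Ptprt, and with no strandedness setting given its reads cannot be told apart from those of Ptprt. Neuronal markers did not share the pattern of Ptprt across the libraries. The 6 of them summed to 79.8 CPM in PKO-NF1, 37.3 in NF1, 88.8 in PKO and 46.1 in WT. Of these markers none was at least 2-fold apart in either Nf1 pair, and in PKO vs WT 4 were higher and 1, Tubb3, was lower. Myelinating Schwann cell markers did move with the Nf1 labels, with 7 of 8 lower for NF1 vs WT and 6 of 8 for PKO-NF1 vs PKO. Their median log2 ratios were -1.61 and -1.42, and the part of myelinating cell content in the Ptprt values was not tested. In bulk nerve, fewer cells of a type and less RNA per cell cannot be told apart.

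The 5 genes whose profile over the 4 libraries lay nearest to that of Ptprt were Megf6, Tmem28, Myo1d, Tenm4 and Scd3, out of 13822 candidates. Likeness was the Euclidean distance between log2(CPM + 0.5) values centred on each gene's mean, and it was 0.29 for Megf6 and 0.37 for Scd3, against a median of 2.33 over all candidates. Megf6, which encodes a protein with many EGF-like repeats, was at 3.6 CPM in PKO-NF1 and 2.84 in NF1, against 15.2 in PKO and 19.1 in WT. Tenm4, a teneurin, was at 2.26 CPM in PKO-NF1 and 3.10 in NF1, against 12.7 in PKO and 12.6 in WT. Tmem28 and Scd3 were near or under 1 CPM in both Nf1-floxed libraries. The nearest phosphatase to Ptprt was Ptprf, at a distance of 0.70, and it ranked 47 among all candidates.

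**Figure D1:**
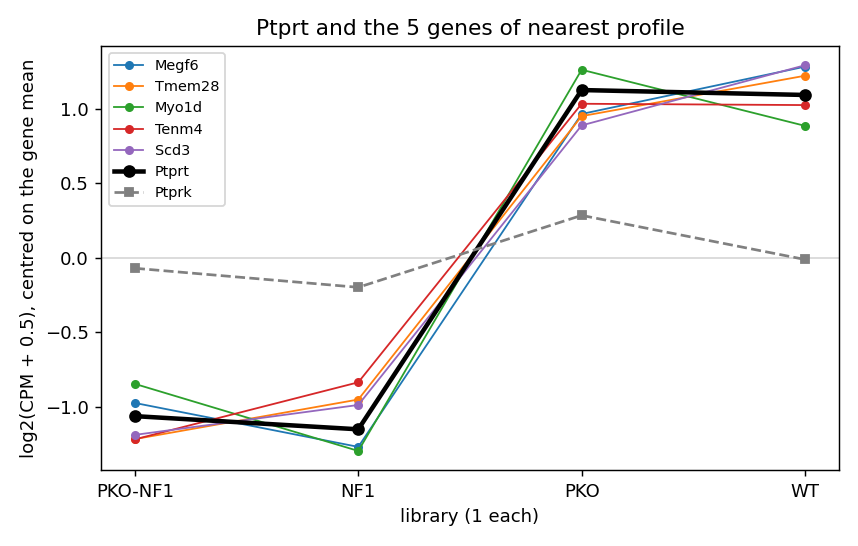
Profiles of Ptprt (black), its 5 nearest genes (coloured) and Ptprk (grey, dashed) over the 4 libraries, as log2(CPM + 0.5) centred on each gene's mean. Ptprt and its nearest genes sit low in PKO-NF1 and NF1 and high in PKO and WT, while Ptprk stays near its mean in each library.

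The other R2B genes did not share the size of the Ptprt difference. Ptprk, which removes phosphate from the EGF receptor and from catenins in human cells, was at 8.42 CPM in PKO-NF1, 7.66 in NF1, 10.9 in PKO and 8.79 in WT. No neighbours in order of level differed beyond counting error, but PKO-NF1 was 1.30-fold lower than PKO (interval 1.04 to 1.62). Ptprm, a homophilic receptor also found on endothelium, was at 28.6 CPM in PKO-NF1 and 22.2 in NF1, against 37.6 in PKO and 35.6 in WT. It was 1.60-fold lower in NF1 relative to WT (interval 1.42 to 1.82), and in PKO-NF1 it was 1.32-fold lower relative to PKO (1.17 to 1.48), under the 2-fold limit used here. Ptpru, a relative whose catalytic activity has been disputed, was at 3.84 CPM in PKO-NF1, 7.31 in NF1, 9.78 in PKO and 15.6 in WT. Each step between neighbouring levels was larger than counting error. Ptpru was 2.14-fold lower in NF1 relative to WT (1.74 to 2.64), and in PKO-NF1 it was 2.55-fold lower relative to PKO (1.90 to 3.45).

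Partners of the R2B receptors were followed as a list of 12 cadherins, catenins and described substrates. In NF1 vs WT 5 were at least 2-fold lower and 1 higher, with a median log2 ratio of -0.78 where the median of all genes was 0.00. In PKO-NF1 vs PKO 4 were lower and none higher, with a median of -0.86 against 0.00 for all genes. After correction for transcript length and GC content, a step described below, 1 was lower and 1 higher in NF1 vs WT and 2 were lower in PKO-NF1 vs PKO. Lower in both pairs were Cdh2 (N-cadherin; 2.29-fold and 2.99-fold), Cdh5 (VE-cadherin; 2.28-fold and 2.43-fold) and Jup (plakoglobin; 2.02-fold and 2.39-fold). The most abundant, Ctnnb1 (beta-catenin), was at 443 CPM in PKO-NF1 and 355 in NF1, against 505 in PKO and 552 in WT. The cytoplasmic substrate Pxn (paxillin) was at 87.7 and 150 CPM, against 165 and 245, in the same libraries. Neither was 2-fold apart in any of the 4 pairs.

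**Figure D2:**
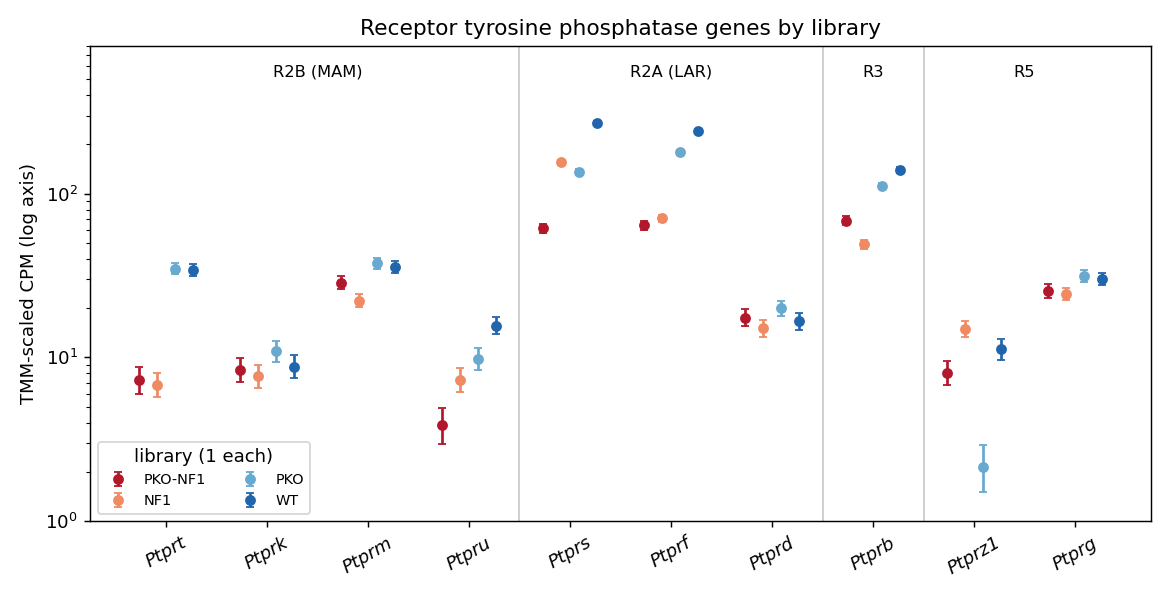
TMM-scaled CPM (log axis) of the 10 phosphatase genes in PKO-NF1, NF1, PKO and WT, 1 library each, grouped by receptor type. Bars are exact 95% Poisson intervals of the counts; Ptprt sits at 7.26 and 6.80 CPM in PKO-NF1 and NF1, against 34.9 and 34.1 in PKO and WT, while Ptprk, Ptprd and Ptprg span less than a 1.5-fold range.

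The R2A genes Ptprs and Ptprf had the highest levels of the set per transcript length, at a mean of 22.8 and 18.2 CPM per kilobase over the 4 libraries. They led in every library, whereas the order of the others changed between libraries. Ptprt was the lowest of the 10 in PKO-NF1 and NF1, at 0.60 and 0.56 CPM per kilobase, and Ptprz1 in PKO, at 0.26 CPM per kilobase. Ptprf (LAR), a receptor that recruits liprins at adhesion sites, was at 64.1 CPM in PKO-NF1 and 70.7 in NF1, against 179 in PKO and 242 in WT. Both Nf1-floxed libraries lay below both others. The ratio was 3.42-fold lower for NF1 vs WT (interval 3.22 to 3.64) and 2.80-fold lower for PKO-NF1 vs PKO (2.61 to 3.002). Ptprs (RPTP-sigma), a receptor through which chondroitin sulfate proteoglycans restrain axon growth, was at 61.4 CPM in PKO-NF1, 155 in NF1, 136 in PKO and 271 in WT. It was 1.75-fold lower in NF1 relative to WT (1.67 to 1.83), and in PKO-NF1 it was 2.21-fold lower relative to PKO (2.05 to 2.38). Ptprd, an organiser of synaptic contacts in neurons, was at 17.5 CPM in PKO-NF1, 15.1 in NF1, 20.02 in PKO and 16.6 in WT. Neighbouring levels of Ptprd did not differ beyond counting error, whereas PKO was 1.20-fold above WT (interval 1.03 to 1.41).

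Of 23 ligands of R2A receptors 16 were measured at 1 CPM or more in some library. In NF1 vs WT 5 were lower and none higher (median log2 ratio -0.78), and in PKO-NF1 vs PKO 2 were lower and 2 higher (median -0.22). After correction for transcript length and GC content none was lower and 1 was higher in each of these pairs, so every lower call was lost. Before that correction Sdc3, a heparan sulfate syndecan, was lower in both pairs (2.13-fold and 2.22-fold), as was the synaptic adhesion gene Lrfn4 (2.38-fold and 2.87-fold). Perlecan, Hspg2, the most abundant ligand gene by CPM, was at 447 CPM in PKO-NF1 and 501 in NF1, against 688 in PKO and 1077 in WT. Among 7 cytoplasmic partners, Caskin2, a scaffold protein that binds LAR, was at 30.5 CPM in PKO-NF1 and 45.1 in NF1, against 135 in both PKO and WT. Its ratios were 2.99-fold lower for NF1 vs WT and 4.44-fold lower for PKO-NF1 vs PKO. The neuronal paralog Caskin1 was also lower in both (2.17-fold and 5.25-fold), at 1.22 CPM in PKO-NF1 and 5.08 in NF1, against 6.41 in PKO and 11.03 in WT. With the correction none of the 7 cytoplasmic partners was lower and 1 was higher in NF1 vs WT, while 3 were lower and 1 higher in PKO-NF1 vs PKO, as without it. The liprin Ppfia1 was less than 2-fold apart in all 4 pairs.

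Ptprb (VE-PTP), the endothelial phosphatase, was at 68.5 CPM in PKO-NF1, 49.0 in NF1, 112 in PKO and 140 in WT. Both Nf1-floxed libraries lay below both others, and each step of the order exceeded counting error. NF1 was 2.86-fold lower than WT (interval 2.65 to 3.09), and PKO-NF1 was 1.63-fold lower than PKO (1.51 to 1.76). Endothelial marker genes were lower too: 8 of 12 by at least 2-fold in NF1 vs WT and 7 of 12 in PKO-NF1 vs PKO, with none higher. After correction for length and GC content 7 and 2 of the 12 were past the limit. The log2 ratio of Ptprb was -1.52 in NF1 vs WT, where the markers ran from -2.38 to -0.39, and -0.71 in PKO-NF1 vs PKO, where they ran from -1.76 to 0.42. Ptprb came to 11.4% of the summed CPM of the 12 endothelial markers in PKO-NF1, 14.1% in NF1, 10.7% in PKO and 16.4% in WT. None of the 12 markers was at 0 in any library, and their summed level was 601 CPM in PKO-NF1 and 347 in NF1, against 1047 in PKO and 852 in WT. The part of endothelial content in the Ptprb difference was not tested.

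Some substrates and neighbours of Ptprb were also lower in the Nf1-floxed libraries, in part genes that serve as endothelial markers here. Of 8 genes 5 were at least 2-fold lower for NF1 vs WT and 3 for PKO-NF1 vs PKO, with median log2 ratios of -1.10 and -0.60. Of all genes 6.31% and 9.7% were lower. Angpt1 lay on the higher side in both pairs (1.25-fold and 1.56-fold), and Angpt4 in PKO-NF1 vs PKO (1.37-fold). After correction for length and GC content 3 and 1 of the 8 were lower. Tek (TIE2), the angiopoietin receptor that Ptprb dephosphorylates, was at 38.3 CPM in PKO-NF1 and 27.5 in NF1, against 51.6 in PKO and 47.9 in WT. It was less than 2-fold apart in both Nf1 pairs (1.74-fold lower for NF1 vs WT and 1.35-fold lower for PKO-NF1 vs PKO). Tie1, an orphan relative of Tek, was 3.76-fold and 2.56-fold lower in the same pairs.

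Ptprz1 is a glial receptor for pleiotrophin and contactins, made by Schwann cell precursors and central glia. Of the 10 genes it was the only one that was higher in both Nf1-floxed libraries than in their partners. It was at 8.05 CPM in PKO-NF1, 14.9 in NF1, 2.14 in PKO and 11.2 in WT, from 132, 294, 38 and 190 counts. The PKO library stood apart from the other 3, and each step of the order exceeded counting error. In NF1, Ptprz1 stood 1.33-fold above WT (interval 1.10 to 1.61) and in PKO-NF1 3.77-fold above PKO (2.61 to 5.56). The second ratio rests on the low PKO library: in PKO-NF1 the level was below that of WT. Schwann lineage markers had medians of -0.41 and 0.21 on the log2 scale in these 2 pairs, and non-myelinating markers -0.71 and 0.47. Ptprz1 lay above all 6 markers of either list in both pairs.

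Ptprg, a broadly expressed contactin receptor, was at 25.4 CPM in PKO-NF1 and 24.5 in NF1, against 31.4 in PKO and 30.2 in WT. Its ratios were 1.23-fold lower for NF1 vs WT (interval 1.09 to 1.40) and 1.24-fold lower for PKO-NF1 vs PKO (1.09 to 1.41). Of 11 ligands of the R5 receptors 7 were measured, and 1 was lower and none higher in NF1 vs WT. In PKO-NF1 vs PKO 2 were lower and 2 higher, the higher ones being Tnc (2.40-fold) and Cntn6 (4.34-fold, from at most 1.22 CPM). Cntn1 (contactin) was lower in both pairs, from at most 3.49 CPM in any library (5.38-fold and 3.36-fold). The growth factor Ptn (pleiotrophin) was at 90.5 CPM in PKO-NF1, 65.6 in NF1, 45.8 in PKO and 59.9 in WT, with less than 2-fold between either Nf1 pair. Mdk (midkine) and Ncam1 were also under 2-fold in both.

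**Figure D3:**
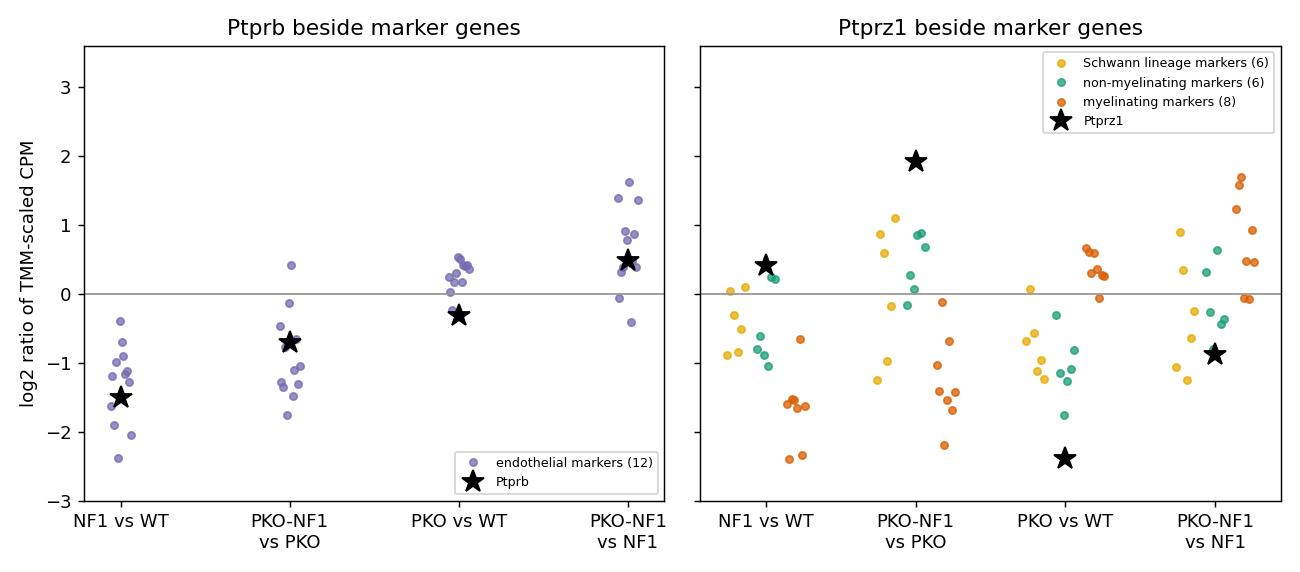
Log2 ratios of Ptprb beside 12 endothelial markers (left) and of Ptprz1 beside 3 lists of Schwann cell markers (right) in the 4 pairs of libraries; each dot is a gene and the star is the phosphatase. Ptprb lies within the range of the endothelial markers in both Nf1 pairs and below all 12 in PKO vs WT, and Ptprz1 lies below all the markers shown in PKO vs WT.

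Counted together, 4 of the 10 genes were at least 2-fold lower with an interval excluding 1 in NF1 vs WT (Ptprt, Ptpru, Ptprf and Ptprb), where 6.31% of 14700 genes were lower, and none was higher, where 10.4% were. In PKO-NF1 vs PKO 4 were lower (Ptprt, Ptpru, Ptprs and Ptprf), where 9.7% of genes were, and Ptprz1 was higher, where 5.2% were. All 10 passed the filter of 1 CPM in at least 1 library. The median log2 ratio of the 10 was -0.74 for NF1 vs WT and -0.55 for PKO-NF1 vs PKO, against 0.00 over all genes in both. These counts come from the contrasts used to choose the set, and nothing is read from them.

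The transcripts of Ptpru, Ptprs and Ptprf have a GC content of 59.2%, 60.3% and 58.1%, in the highest of 10 equal GC classes of genes, and those of the other 7 genes lie between 43.8% and 50.1%. Genes in that class had a median log2 ratio of -0.41 for NF1 vs WT and -0.58 for PKO-NF1 vs PKO, so GC content moved with the values of these 3 genes, and its part in them was not tested. After subtraction of smooth trends in transcript length and GC content, Ptprs was at a log2 ratio of 0.00 for NF1 vs WT and -0.08 for PKO-NF1 vs PKO. The trend subtracted from Ptprs was -0.80 and -1.07 in these pairs, larger than the medians of its GC class. It joins length and GC content, whose parts were not separated. Ptpru was at -0.37 and -0.47, and Ptprf at -1.03 and -0.45. Ptprt was at -2.04 and -1.68, at least 2-fold lower in both pairs, as no other gene of the set was. Ptprz1 was at 0.50 and 2.10, and Ptprb at -1.28 and -0.19. Ptprt had been chosen on these 2 pairs, so nothing is read from its place in the set.

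**Figure D4:**
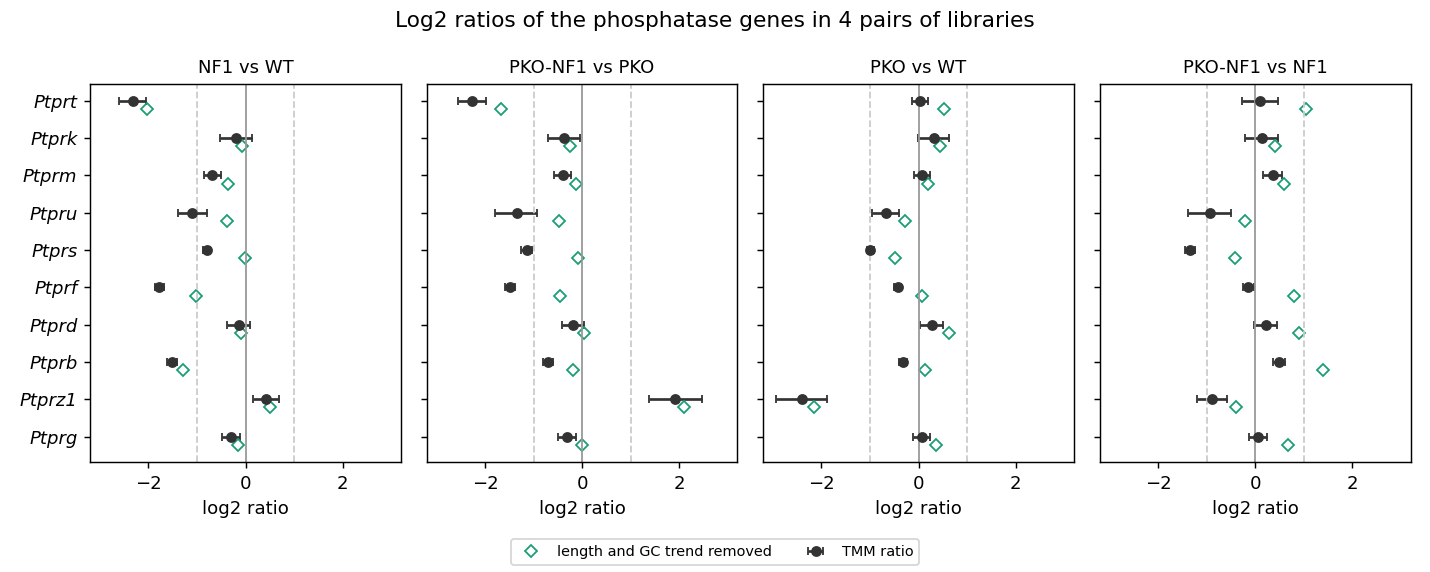
Log2 ratios of the 10 genes in 4 pairs of libraries (filled points, with 95% intervals for counting error) and after subtraction of the length and GC trends (open diamonds); dashed lines mark 2-fold. Ptprt, which was chosen on the Nf1 pairs, lies beyond 2-fold on the lower side in both of them by point and by diamond. The Ptprs diamond lies near 0 in these pairs.

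PKO and WT differ in P2ry14, and neither label names an Nf1 allele. This pair was not used to choose the genes, although its libraries also serve in the Nf1 pairs. Ptprz1 was 5.25-fold lower in PKO than in WT (interval 3.69 to 7.64), at 2.14 against 11.2 CPM. Ptprs was 2-fold lower (1.90 to 2.10), at 136 against 271 CPM, which is the edge of the 2-fold limit. These were 2 of 10 genes, where 5.22% of all genes were lower, and none was higher, where 10% were. Schwann lineage and non-myelinating markers were on the lower side as well in PKO, with medians of -0.82 and -1.12, whereas Ptprz1 had a log2 ratio of -2.39 and lay below all of them. Ptprz1 amounted to 0.116% of the summed Schwann lineage markers in PKO and 0.485% in WT. The other 8 genes were within 1.60-fold. Scaled by total counts alone, which shifts every log2 ratio of this pair by -0.46, Ptpru also passed 2-fold, and all 10 genes were on the lower side in PKO.

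PKO-NF1 and NF1 differ in P2ry14 on an Nf1-floxed background. Ptprs was 2.53-fold lower in PKO-NF1 than in NF1 (interval 2.36 to 2.72), the single gene of the 10 past the limit, where 13.8% of all genes were lower. None was higher, where 7.9% were. Ptpru was 1.90-fold lower (1.40 to 2.60), at 3.84 against 7.31 CPM, and Ptprz1 1.85-fold lower (1.504 to 2.29), at 8.05 against 14.9 CPM. Ptprb was 1.40-fold higher (1.28 to 1.53) and Ptprm 1.29-fold higher (1.12 to 1.47). After the same subtraction, Ptprs was 1.33-fold lower, and Ptprt and Ptprb were 2.06-fold and 2.63-fold higher in PKO-NF1. The trend subtracted from these last genes was -0.95 and -0.91 on the log2 scale, where their GC classes had medians of 0.05 and 0.07. Their longest transcripts, of 12112 and 11911 bases, are the longest of the 10 genes. The part of transcript length in these corrected values was not tested. NF1 holds the muscle RNA named above, and this pair also differs in Xist and the Y-linked gene Ddx3y, as given above. The part of these differences in the ratios was not tested.

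Under TMM scaling, Ptprz1, Ptprs, Ptpru and Ptprf were lower in both P2ry14-null libraries than in their partners, Ptprf by 1.35-fold and 1.10-fold. The direction of Ptprf did not survive correction for transcript length and GC content. Its corrected log2 ratio was 0.06 in PKO vs WT and 0.80 in PKO-NF1 vs NF1, on the higher side in both. Ptprz1, Ptprs and Ptpru stayed on the lower side in both pairs after that correction. A model over all 4 libraries took both pairs together. Quasi-likelihood fitting in edgeR, with Nf1 and P2ry14 effects added on the log scale, called 7 of 14105 genes at the P2ry14 term at Benjamini-Hochberg adjusted p under 0.05 (0.0496%), and none of the 10. Only 1 residual degree of freedom remained, and it measures how far the 2 effects fail to add up, so the p-values carry no spread between mice. The fitted log2 change was -1.60 for Ptprz1 (SE 0.45, edgeR adjusted p = 0.15), -1.17 for Ptprs (SE 0.27, edgeR adjusted p = 0.142) and -0.80 for Ptpru (SE 0.28, edgeR adjusted p = 0.178). These 3 had an unadjusted p under 0.05, as did 25.2% of all genes. The DESeq2 Wald test called 724 of 14105 genes, with Ptprs alone of the 10 (adjusted p = 0.0279), and gave Ptprz1 an adjusted p of 0.0566. Adjusted p was 0.51 or more in edgeR for each of the other 7, with fitted log2 changes between -0.29 and 0.24.

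Receptor phosphatases outside the 10 give the setting in the same nerves. Of 11 such genes 8 were measured, and 1 was lower for NF1 vs WT and 2 for PKO-NF1 vs PKO, with none higher in either. With length and GC trends removed, none was lower in NF1 vs WT, and 1 was lower and 1 higher in PKO-NF1 vs PKO. Before this step Ptpre, a phosphatase with a short outer part, was lower in both pairs (2.35-fold and 2.04-fold), at 29.8 CPM in PKO-NF1 and 31.6 in NF1, against 60.7 in PKO and 74.1 in WT. Its close relative Ptpra, an activator of SRC kinases, was at 119 CPM in PKO-NF1 and 90.5 in NF1, against 115 in PKO and 114 in WT. Ptprj, an R3 receptor like Ptprb, was at 37.1, 40.8, 29.8 and 62.1 CPM in PKO-NF1, NF1, PKO and WT. Of 15 measured non-receptor phosphatases none was 2-fold apart in NF1 vs WT, and 3 were lower in PKO-NF1 vs PKO. Those 3 included Ptpn11 (SHP2), which promotes RAS signalling downstream of receptor kinases (2.16-fold), and Ptpn14 (2.77-fold), and with the length and GC trends removed none of the 15 was 2-fold apart in either pair.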

How the data were processed

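RNA sequencing of sciatic nerve gave 1 library per genotype. The authors deposited raw counts for 24062 gene symbols, and per the submitters' processing notes the tools were HISAT2 2.0.5, featureCounts 1.5.2 and FastQC 0.11.7, with mm10 as the build. The sources used here give no setting for strandedness, annotation or multi-mapping reads, so reads of overlapping and antisense genes cannot be told apart. Members and gene lists were chosen with earlier results of these data known.

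Counts were scaled to CPM with TMM (edgeR 4.0.16 in R 4.3.3), and 14700 genes reached 1 CPM in at least 1 library. Ratios carry exact conditional (Clopper-Pearson) 95% intervals for counting error; no molecular identifiers are named, so several reads may come from 1 molecule. A gene counted as lower or higher at 2-fold or more with an interval excluding 1, a count of 0 being set to 3. The additive model took genes at 1 CPM in 2 or more libraries and Benjamini-Hochberg adjustment over all of them. Genes named were the 10 members, each list's 3 most abundant genes and up to 4 past the limit in both Nf1 pairs, and the 5 nearest to Ptprt, of which some are given only in part. Named outside this rule were Nf1, P2ry14, Xist, Ddx3y, Ptprtos, Sox10, Tnc, Cntn6, Angpt1 and Angpt4. Alternatives were DESeq2 1.42.0 size factors, total counts, a 1.5-fold limit, scaling without muscle markers and members, and removal of trends over length and GC content (splines with 4 degrees of freedom), taken from GENCODE M21, where 22750 symbols matched directly and 935 through synonyms. Methods were tested on simulated data.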

Additional observations from a re-analysis of the deposited data

Results flagged for a closer look

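Ptprb was the single gene of the 10 whose P2ry14 ratios pointed in opposite directions with both counting intervals excluding no change. Its log2 ratio was -0.33 in PKO vs WT and 0.48 in PKO-NF1 vs NF1. After subtraction of the length and GC trends they were 0.14 and 1.39, so both pointed the same way and the opposition was lost. The difference between the 2 ratios was not tested. Endothelial markers had medians of 0.33 and 0.63 in the same pairs, and their part in the Ptprb values was not tested.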

How the results depend on the processing

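No paired analysis was possible because each genotype has 1 library. The number of the 10 genes at least 2-fold lower was 4 in PKO-NF1 vs PKO, and 1 with the length and GC trends removed. In PKO vs WT it was 2, and 1 with either DESeq2 size factors, where Ptprs at the 2-fold edge dropped out, or the trends removed. In PKO-NF1 vs NF1 it was 1, but 3 with total counts, 3 with the 1.5-fold limit and 0 with the trends removed, when 2 genes were higher in place of 0. With the trends removed, 4.95% of all genes were lower in PKO-NF1 vs PKO, 5.73% in PKO vs WT and 9.99% in PKO-NF1 vs NF1. In that last pair 5.77% were higher. Total counts shift every log2 ratio of that pair by -0.16. No share of all genes is given here for total counts, DESeq2 size factors or the 1.5-fold limit. Nothing is therefore read from the counts of the 10 genes at those settings. At the P2ry14 term 0 of the 10 were called by edgeR and 1 by the DESeq2 Wald test, which called 724 of 14105 genes in all. The edgeR model called 0 genes at 5 CPM and 108 of 18553 with no filter, none of them among the 10. All 40 log2 ratios stayed within their counting intervals with DESeq2 size factors and with scaling that left out muscle markers and the 10 genes. Total counts moved 17 of 40 outside, with 8 changes of sign, and trend removal 29 of 40, with 5 changes of sign. None of these sign changes was in a ratio past the 2-fold limit.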
